A study of Mus musculus with 220 samples.

Results

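Hepatic expression of the genes of fatty acid oxidation and of its nuclear receptor PPARα was described across 96 maternal mouse strains. The genes were a list of 36, put together by function with earlier results of these data known. No measured value entered the rule for the list. It held Ppara, Creb3l3 and the PPARα targets Pdk4 and Vnn1. The others were genes of fatty acid binding and uptake, the carnitine shuttle, mitochondrial and peroxisomal β-oxidation and electron transfer flavoprotein. A gene was measured where the array held a probe set that carried its symbol alone. Where there were several, the brightest by its mean over all mice was used. This gave 33 of the 36 genes, among 17097 genes in all. Acsl1 and Hadha had no probe set of that kind in the table used here, and the probe set of Etfb carried a further symbol, so these 3 genes were not analysed here.

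The livers came from 220 female Ath-HMDP mice, 24 weeks old, the F1 offspring of mothers from 96 inbred or recombinant inbred strains and of C57BL/6J fathers. The mice ate chow for 8 weeks and then a Western diet for 16 weeks. Every mouse of every group carried human APOE-Leiden and CETP transgenes and 1 C57BL/6J haplotype, so the groups differed by the haplotype of the mother, and the offspring of C57BL/6J mothers had C57BL/6J on both sides. The mothers belonged to 34 BXD strains (C57BL/6J and DBA/2J), 21 AXB/BXA strains (C57BL/6J and A/J), 8 CXB strains (C57BL/6J and BALB/cJ), 4 BXH strains (C57BL/6J and C3H/HeJ) and 29 classical inbred strains, with 83, 47, 17, 8 and 65 mice. A strain had 1 mouse in 9 cases, 2 in 51, 3 in 35 and 4 in 1. The labels do not say whether mice of a strain shared a litter, a cage or a day of collection, so the spread within a strain is the spread between those mice and the variance between strains includes whatever they shared.

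PPARα is a nuclear receptor that pairs with the retinoid X receptor and, when bound by fatty acids, activates the genes of fatty acid uptake, mitochondrial and peroxisomal β-oxidation and ketone body formation in the liver, chiefly in fasting. In the mitochondrion, acyl-CoA enters through the carnitine shuttle and is shortened step by step by dehydrogenases, hydratases, hydroxyacyl-CoA dehydrogenases and thiolases, with electrons passing through electron transfer flavoprotein to the respiratory chain. Peroxisomes shorten very long and branched chains by a separate set of enzymes.

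Values are log2 signals from robust multi-array averaging (RMA), and a difference of 1 is a doubling of the signal. The median of all probe set means was 3.46. The members lay between 3.32 for Crot and 12.9 for Fabp1, and 32 of the 33 lay at or above that median. Crot, the peroxisomal carnitine octanoyltransferase, was the exception and ran from 2.90 to 3.97 over the mice, close to the median of all probe sets. Levels of different genes are not set against each other, because probe sets differ in brightness. The summed level of 9 hepatocyte markers was high, from 15.6 to 15.8 over the strains of BXD and AXB/BXA. In bulk liver, fewer cells of a type and less RNA per cell cannot be told apart.

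Genes under PPARα control often carry in their promoters a direct repeat of the half-site AGGTCA with 1 base between the copies, to which PPARα and the retinoid X receptor bind. Promoters of 27 of the 33 measured genes were found in RefSeq (GRCm38.p6), and the 250 bases before each start of transcription in that table were searched on both strands. The table gives 29 starts for these genes, of which 22 lie at the end of the annotated span of the gene and 7 lie inside it. The repeat of AGGTCA with any 1 base between the copies occurred in 0 of the 27 and in 11 of all 32851 promoters (0.0335%). The looser repeat, in which the copy before the spacer reads AGGNCA, occurred in Fabp1 alone and in 27 of all promoters (0.0822%). The half-site AGGTCA, which the repeats also contain, occurred in 7 of the 27 (25.9%), namely Fabp1, Cpt1a, Acadm, Acadvl, Scp2, Slc27a2 and Creb3l3, and in 14% of all promoters. Members were counted by gene, with a match before any listed start, and all promoters were counted by start, so the units of these shares differ. For Cpt1a, Scp2 and Creb3l3 the match precedes a start inside the span, which for Cpt1a lies 975 bases in. The lines below give the 250 bases before the listed start of Fabp1 (chr6:71199629-71199878, plus strand), Cpt1a (chr19:3323051-3323300, plus strand), Acadm (chr3:153944644-153944893, minus strand) and Pdk4 (chr6:5496279-5496528, minus strand), each 5′ to 3′ in the direction of transcription with matches in capitals. They are shown because Fabp1 holds the one long match, Cpt1a and Acadm hold 1 half-site each, and Pdk4 holds no match, like most of the promoters searched.
Fabp1: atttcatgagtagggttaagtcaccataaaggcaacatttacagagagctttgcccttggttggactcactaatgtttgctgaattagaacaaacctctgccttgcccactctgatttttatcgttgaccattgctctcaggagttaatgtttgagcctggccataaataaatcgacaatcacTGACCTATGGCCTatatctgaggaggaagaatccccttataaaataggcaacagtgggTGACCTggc
Cpt1a: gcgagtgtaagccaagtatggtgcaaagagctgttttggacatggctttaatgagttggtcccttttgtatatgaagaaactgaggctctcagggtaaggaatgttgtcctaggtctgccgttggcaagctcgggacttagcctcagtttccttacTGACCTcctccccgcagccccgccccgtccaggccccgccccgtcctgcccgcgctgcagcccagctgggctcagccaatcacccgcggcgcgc
Acadm: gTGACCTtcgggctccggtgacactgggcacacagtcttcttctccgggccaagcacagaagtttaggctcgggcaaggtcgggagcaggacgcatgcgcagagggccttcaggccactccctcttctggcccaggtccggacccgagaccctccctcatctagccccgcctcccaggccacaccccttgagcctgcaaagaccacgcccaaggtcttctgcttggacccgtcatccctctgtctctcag
Pdk4: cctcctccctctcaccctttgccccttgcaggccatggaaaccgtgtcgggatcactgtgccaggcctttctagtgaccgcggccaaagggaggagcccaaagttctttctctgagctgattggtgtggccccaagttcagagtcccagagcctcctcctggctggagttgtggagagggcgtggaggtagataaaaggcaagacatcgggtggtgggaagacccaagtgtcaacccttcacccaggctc
In Fabp1 the long match spans positions -67 to -55 before the start, on the minus strand, and a further half-site ends at position -4. A match is a run of letters and not evidence of binding.

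The first question was how far these genes differed with the maternal strain. Of the 33 members, 32 differed among the 87 strains with 2 or more mice (limma F-test, adjusted p under 0.05), where 59.2% of all genes did. Most members are abundant, and among genes at or above the median signal 87.1% were called, so the count of 32 of 32 such members stood near the background. The members varied by different amounts. Scp2, the sterol carrier protein with the thiolase of branched chains, covered 0.37 between its lowest and highest strain mean, and Pdk4, the kinase that shuts pyruvate dehydrogenase and spares glucose, covered 3.47, an 11.1-fold range. The plot of strain means shows this contrast.

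**Figure D1:**
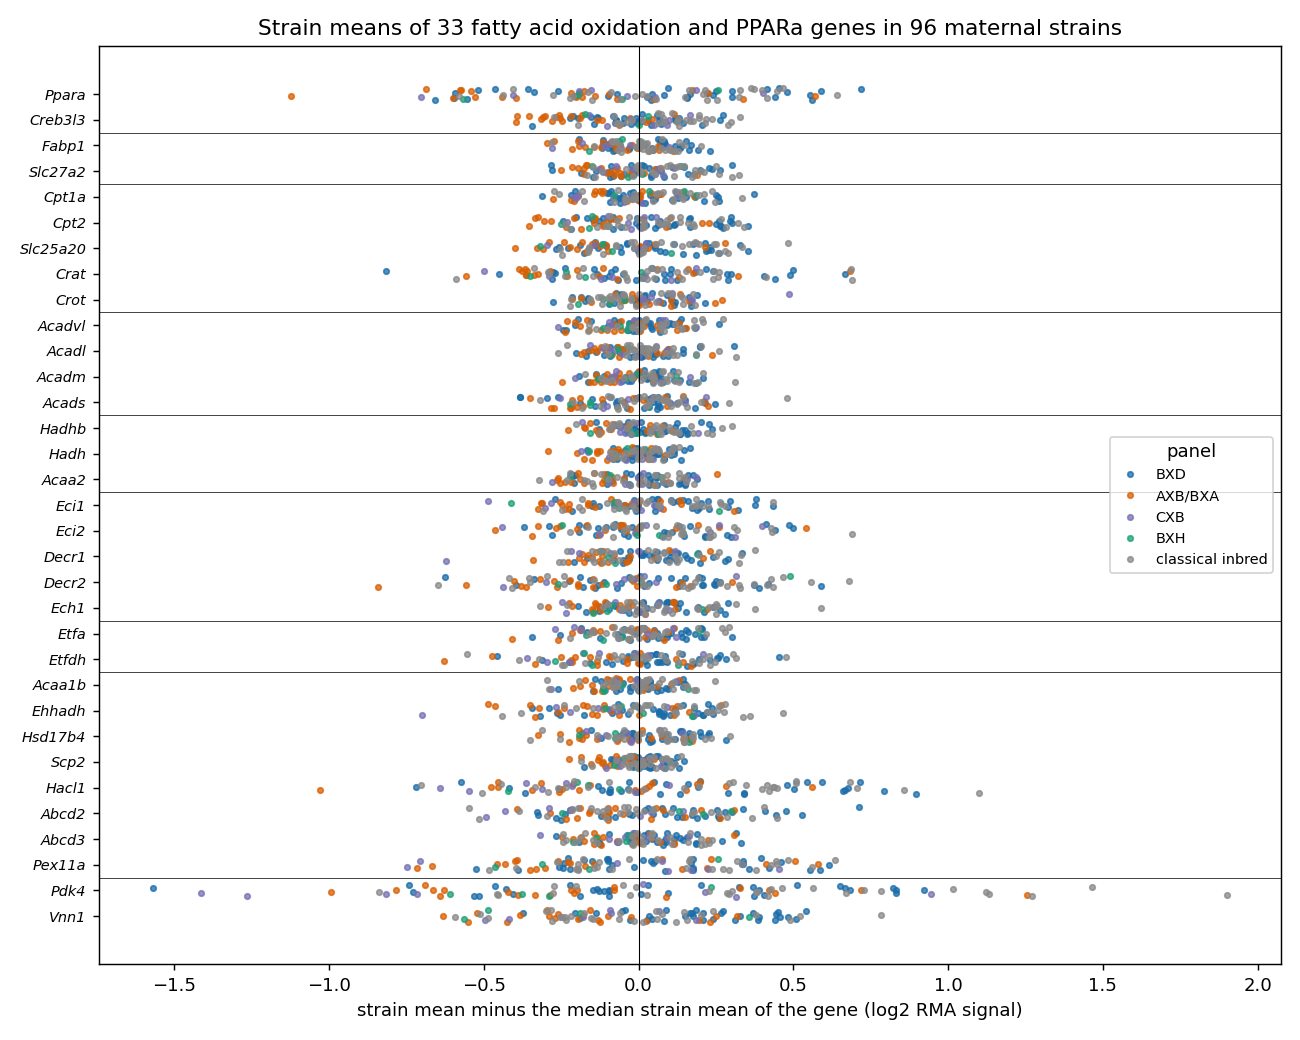
Strain means of the 33 measured members in 96 maternal strains, as the difference from the median strain mean of the gene (log2 RMA signal). Each point is a strain, coloured by panel, and lines separate the roles. Pdk4 has the widest spread (3.47 from lowest to highest) and Scp2 the narrowest (0.37).

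Ppara itself had the largest share of variance between strains of the members, 0.725, and the highest F (7.56, adjusted p = 1.07e-22 by limma). Its strain means ran from 8.60 in AXB5/PgnJ (n = 1) through a median of 9.72 to 10.44 ± 0.19 in BXD75/RwwJ (SD, n = 2), a 3.59-fold range, while mice of a strain differed by an SD of 0.21. The 3 Ppara probe sets gave nearly the same order of strains, with r of 0.88 and 0.95 with the one used over 96 strain means. Creb3l3, a liver transcription factor that acts with PPARα in fasting, covered a narrower range, from 9.14 ± 0.19 in AXB19b/PgnJ (n = 3) to 9.86 ± 0.01 in C58/J (n = 2).

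After Ppara, the shares of variance between strains were highest for Etfdh (0.707), the oxidoreductase that takes electrons from electron transfer flavoprotein, and for Decr2 (0.696), the peroxisomal dienoyl-CoA reductase. Etfdh ran from 10.17 ± 0.09 in BXA11/PgnJ (n = 2) to 11.28 ± 0.04 in SWR/J (n = 2). Decr2 ran from 8.35 ± 0.11 in AXB15/PgnJ (n = 3) to 9.88 ± 0.09 in SWR/J (n = 2). Abcd3 (0.675), which carries acyl-CoA into peroxisomes, Eci1 (0.673) and Eci2 (0.667), the enoyl-CoA isomerases, Ech1 (0.671), a dienoyl-CoA isomerase, and Acaa2 (0.656), the thiolase of medium chains, followed. Of these 8 members 4 were auxiliary enzymes for unsaturated acyl chains, and Decr1, also of that role, had 0.621. Members of other roles lay close below the 8, with 0.640 for Slc25a20, 0.635 for Slc27a2 and 0.628 for Hacl1. At the other end, Cpt1a, the gate of the carnitine shuttle, had a share of 0.207, and Crot had 0.

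Besides Pdk4 and Ppara, the widest ranges of strain means were those of Hacl1, Decr2, Crat, Vnn1, Pex11a and Abcd2. Pdk4 ran from 5.72 ± 0.01 in BXD75/RwwJ (n = 2) through a median of 7.29 to 9.19 ± 0.30 in C58/J (n = 2). The strain with the highest Ppara level was thus the one with the lowest Pdk4 level. Hacl1, the lyase that shortens branched chains in peroxisomes, ran from 9.74 ± 0.11 in BXA11/PgnJ (n = 2) to 11.87 ± 0.17 in SWR/J (n = 2), a 4.37-fold range. Crat, which moves short acyl groups onto carnitine, ran from 6.53 in BXD22/TyJ (n = 1) to 8.03 ± 0.47 in NOD/ShiLtJ (n = 2). Vnn1, a pantetheinase, ran from 9.54 ± 0.04 in AXB19/PgnJ (n = 2) to 10.95 ± 0.17 in C58/J (n = 2). Pex11a, which divides peroxisomes, ran from 8.63 in CXB11/HiAJ (n = 1) to 10.01 ± 0.37 in 129X1/SvJ (n = 2). Abcd2 ran from 6.90 ± 0.10 in C3H/HeJ (n = 2) to 8.15 ± 0.41 in BXD50/RwwJ (n = 2).

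Some strains were high or low for nearly every member. In C58/J, 30 of the 33 members lay above their median strain mean, and the median difference was 0.29. In SWR/J it was 31 members and 0.25, in NOD/ShiLtJ 29 and 0.25, in BXD55/RwwJ 32 and 0.23, in BXD14/TyJ 32 and 0.23, and in BXD50/RwwJ 32 and 0.21. The lowest strains were AXB19/PgnJ, with 1 member above and a median difference of -0.29, C57BLKS/J with 0 and -0.24, AXB10/PgnJ with 2 and -0.21, BXD31/TyJ with 0 and -0.19, and BXA14/PgnJ with 1 and -0.19. High and low strains occurred in the same panel, as in BXD. Ppara was 10.05 in C58/J, 9.73 in SWR/J, near its median of 9.72, and 10.365 in NOD/ShiLtJ. It was 10.29 in BXD55/RwwJ, 10.28 in BXD14/TyJ and 10.18 in BXD50/RwwJ. In the lowest strains, in the order named, it was 9.20, 9.56, 9.15, 9.53 and 9.04, each below that median. The highest strains named here thus had Ppara at or above its median, but the order was not the same, as SWR/J shows. Strains outside those named did not all follow. RIIIS/J had 31 members above their median and Ppara at 9.63, below its median, while BXA11/PgnJ had 7 above and Ppara at 10.06.

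Within a recombinant inbred panel the strains carry only 2 maternal alleles at a locus. Among the strains of BXD, 31 of the 33 members differed (limma F-test, adjusted p under 0.05; 45.9% of all genes), and among those of AXB/BXA 27 did (41.0%). In CXB 17 did (24.2%) and in BXH 3 did (4.50%), namely Ppara, Eci1 and Decr2. Without mouse 1 of every strain these counts were 20, 16, 12 and 0, and without mouse 2 they were 18, 14, 2 and 0. Only strains that had 3 or 4 mice keep several in these 2 settings. With all mice Ppara was called in each of the 4 panels, with F of 8.27 in BXD, 7.61 in AXB/BXA, 6.74 in CXB and 5.45 in BXH (adjusted p = 0.048 in BXH). Cpt1a was called in BXD alone of these panels. CXB and BXH hold few strains, and an F-test has less to work with there. In the classical inbred strains 30 of the 33 were called (51.3%).

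The next question was whether the panels differed. Over the 5 panels, 14 of the 33 members were called by the F-test on strain means, against 8.72% of all genes. The largest F values were those of Creb3l3 (13.0), Hadh (8.29), Scp2 (7.90) and Vnn1 (7.54). BXD and AXB/BXA, the panels with the most strains, share C57BL/6J and differ in the other progenitor. In this contrast 13 of the 33 members were called higher in BXD and 0 lower, where 4.33% of all genes were called higher, 4.97% lower and 9.29% in either direction. Among genes at or above the median signal 6.17% were called higher. The estimate was above 0 for 32 of the 33 members, as it was for 51.0% of all genes, and its median was 0.12 for the members and 0.0014 for all genes. The members' levels are correlated, so these counts are not of independent genes. Without mouse 1 of every strain the count was 8 in this contrast and 3 over the 5 panels. The called differences were at most 1.28-fold. Some exceeded the SD over strains, as for Vnn1 (0.36, with SDs of 0.23 in BXD and 0.27 in AXB/BXA). Others did not, as for Slc25a20 (0.15, with an SD of 0.17 in BXD and in AXB/BXA).

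Vnn1 had the largest called difference. Its strain means in BXD ran from 9.80 through a median of 10.37 to 10.71, and those in AXB/BXA from 9.54 through 9.99 to 10.49. The ranges overlapped, and the BXD mean was 0.36 higher (1.28-fold, SE 0.075, adjusted p = 0.0011 by limma). Eci1 ran from 10.65 to 11.35 around a mean of 11.01 in BXD and from 10.59 to 11.23 around a mean of 10.82 in AXB/BXA, a difference of 0.19 (SE 0.050, adjusted p = 0.0093). Creb3l3 ran from 9.19 through 9.53 to 9.81 and from 9.14 through 9.29 to 9.65, also a difference of 0.19 (SE 0.039, adjusted p = 7.3e-04). Higher in BXD as well were Cpt2 (0.18) and Slc25a20 (0.15), the carnitine palmitoyltransferase and the carnitine carrier of the inner membrane, and Etfdh (0.17). So were Decr1 (0.15), the mitochondrial dienoyl-CoA reductase, Fabp1 (0.12), the fatty acid binding protein of liver, Hsd17b4 (0.12), the bifunctional enzyme of peroxisomes, and Scp2 (0.11). The dehydrogenases Hadh (0.11) and Acadm (0.086) and Hadhb (0.10), the thiolase subunit of the trifunctional protein, completed the 13. Ppara was 9.77 ± 0.39 in BXD and 9.48 ± 0.39 in AXB/BXA (SD over 34 and 21 strains), a difference of 0.29 (SE 0.099, adjusted p = 0.056), which did not pass.

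Some markers of cholangiocytes and stellate cells moved with this contrast, while 0 of 10 endothelial cell markers and 0 of 8 T and B cell markers were called. The summed level of the 5 measured of 8 cholangiocyte markers had a median of 7.27 in BXD (5.94 to 9.27) and 8.49 in AXB/BXA (6.02 to 9.64), with 3 of the 5 called lower in BXD. That of the 10 stellate cell markers was 12.9 (12.2 to 13.2) and 13.1 (12.6 to 13.3), with 3 of 10 called lower, and that of the 12 macrophage and Kupffer cell markers was 13.6 (13.1 to 13.9) and 13.9 (13.3 to 14.02), with 0 called. With these 3 summed levels as covariates, a fit added after the data were seen, 2 members instead of 13 were called, Vnn1 (0.31, adjusted p = 0.017) and Scp2 (0.087, adjusted p = 0.0073), where 1.44% of all genes were called higher. The Ppara difference was 0.019 in that fit. What part the other cells had in the difference was not tested.

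**Figure D2:**
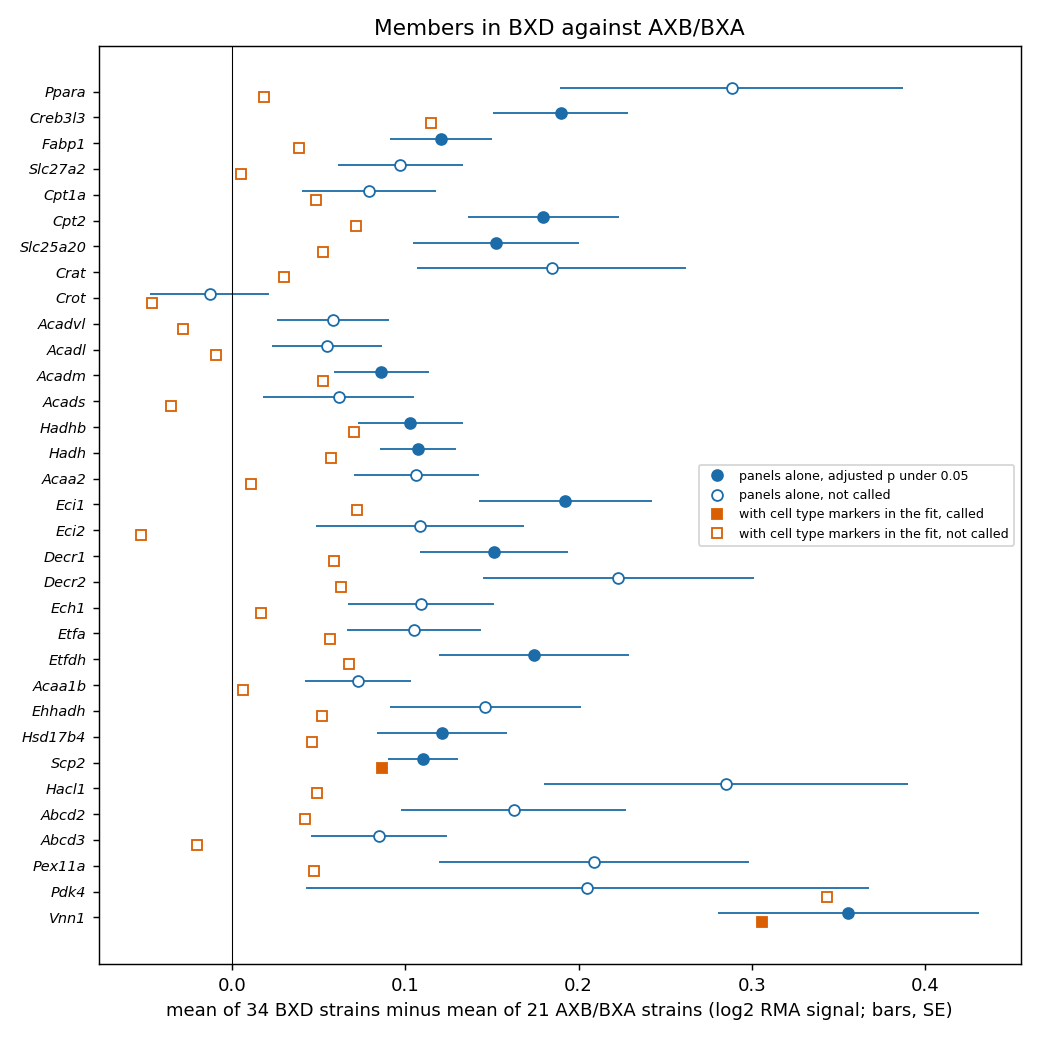
Difference between the mean of 34 BXD and 21 AXB/BXA strains for each member (log2 RMA signal), with SE bars for the fit of panels alone (circles) and without bars for the fit that also holds 3 summed cell type marker levels (squares). Filled symbols have an adjusted p under 0.05: 13 in the fit of panels alone and 2, Vnn1 and Scp2, with the markers.

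The progenitor strains were compared with C57BL/6J, the strain of the fathers. C57BL/6J has 2 mice, which serve in all 4 contrasts, so the contrasts are not independent of each other. Ppara was 10.31 and 10.07 in the mice of C57BL/6J, 9.64, 9.46 and 9.62 in A/J, 9.33, 9.40 and 9.12 in BALB/cJ, and 9.60 and 9.40 in C3H/HeJ. No mouse of these 3 strains reached the lower C57BL/6J mouse. The differences were -0.62 (SE 0.19, adjusted p = 0.024) for A/J, -0.91 (SE 0.19, adjusted p = 4.1e-04), a 1.88-fold lower signal, for BALB/cJ and -0.69 (SE 0.21, adjusted p = 0.026) for C3H/HeJ, all by limma. In DBA/2J Ppara was 10.27, 9.84 and 10.18, which overlapped C57BL/6J, and the difference was -0.096 (SE 0.19, adjusted p = 0.92).

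In A/J, 5 of the 33 members were called lower and 0 higher, where 4.61% of all genes were called lower and 5.91% higher. They were Ppara, Acaa2 (-0.32), Eci1 (-0.37), Abcd3 (-0.36) and Hacl1. Hacl1 was 11.49 and 11.41 in C57BL/6J and 10.39, 10.66 and 10.54 in A/J, a difference of -0.92 (SE 0.26, adjusted p = 0.014) with no overlap. In BALB/cJ, 4 members were called lower and 0 higher (4.20% and 5.52% of all genes): Ppara, Acaa2 (-0.25), Decr1 (-0.31) and Abcd3 (-0.35). Abcd3 was 11.69 and 11.61 in C57BL/6J and 11.28, 11.32 and 11.29 in BALB/cJ (adjusted p = 0.0050), again with no overlap.

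In C3H/HeJ, 8 members were called lower and 0 higher, where 3.15% of all genes were called lower, 5.38% higher and 8.53% in either direction. The estimate was above 0 for 6 of the 33, as it was for 51.9% of all genes. Beside Ppara and Acaa2 (-0.33) these were Slc27a2 (-0.32), a very long chain acyl-CoA synthetase and fatty acid transporter, and 5 peroxisomal genes: Acaa1b (-0.37), the peroxisomal thiolase, Hsd17b4 (-0.32), Hacl1 (-0.94), Abcd2 (-0.78) and Abcd3 (-0.39). Abcd2 was 7.62 and 7.73 in C57BL/6J and 6.82 and 6.97 in C3H/HeJ (adjusted p = 0.0081). Acaa1b was 12.67 and 12.59 against 12.37 and 12.15 (adjusted p = 0.0022). Neither pair of strains overlapped for these genes.

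In DBA/2J 0 members were called by limma, with 10 at an unadjusted p under 0.05, where 2.10% of all genes were called and 1.12% were called higher. The estimate was above 0 for 28 of the 33 (51.3% of all genes), with a median of 0.14. The smallest adjusted p values were those of Pex11a (0.69, adjusted p = 0.086) and Decr1. Decr1 was 11.52, 11.46 and 11.32 in DBA/2J and 11.08 and 11.14 in C57BL/6J, with no overlap (0.32, SE 0.10, adjusted p = 0.089). The median estimate was -0.15 in A/J, -0.085 in BALB/cJ and -0.21 in C3H/HeJ, while that of all genes lay between 0.0024 and 0.011 in the 4 contrasts.

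These counts rest on few mice. Without C57BL/6J mouse 1, which had the higher Ppara level, 0 members were called in A/J, BALB/cJ and C3H/HeJ. Without C57BL/6J mouse 2 the counts were 2, 3 and 4, and without C3H/HeJ mouse 2 the count for that strain was 1. Counts that fell by over 1.5 times also followed without A/J mouse 2 (3), without BALB/cJ mouse 1 (2) or mouse 3 (2) and without C3H/HeJ mouse 1 (4). The summed level of the cholangiocyte markers was 7.23 to 7.36 in C57BL/6J, 7.56 to 8.15 in A/J, 8.66 to 8.91 in BALB/cJ and 9.08 to 9.13 in C3H/HeJ, with 0 of the 5 measured called in A/J, 1 called higher in BALB/cJ and 4 called higher in C3H/HeJ. Macrophage markers stood at 14.1 in A/J against 13.5 in C57BL/6J, with 5 of 12 called higher. Endothelial cell markers stood at 10.5 to 10.8 in C57BL/6J and 9.71 to 10.1 in BALB/cJ, with 9 of 10 called lower there, 3 in A/J and 2 in C3H/HeJ. Their part in the differences was not tested.

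**Figure D3:**
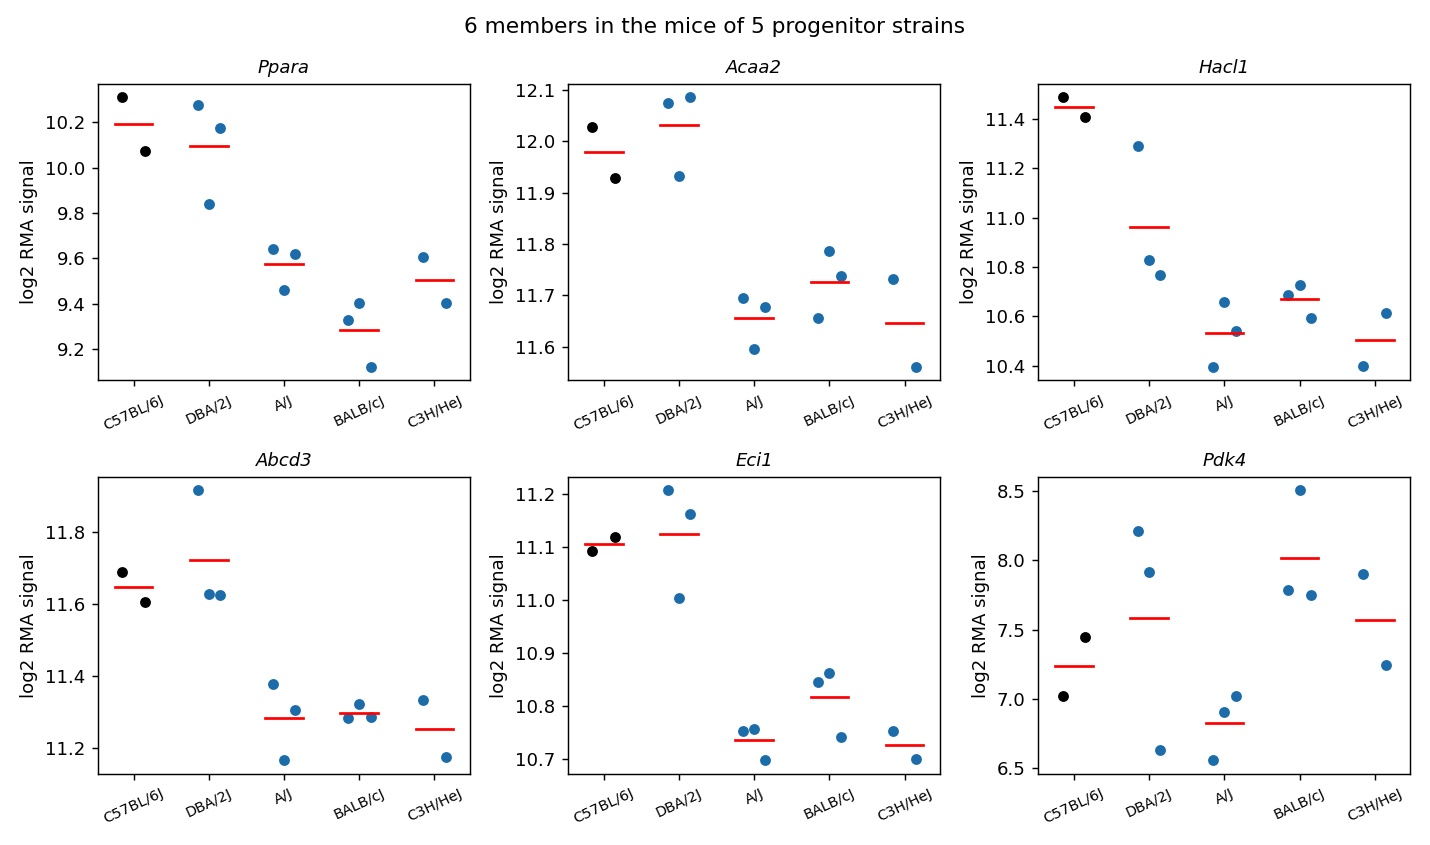
Log2 RMA signal of Ppara, Acaa2, Hacl1, Abcd3, Eci1 and Pdk4 in each mouse of C57BL/6J (black) and of 4 progenitors of recombinant inbred panels (blue). Red bars are strain means. For Ppara, Acaa2, Hacl1, Abcd3 and Eci1 the mice of A/J, BALB/cJ and C3H/HeJ lie below both C57BL/6J mice. The vertical axes do not start at 0.

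The members were then set against Ppara over the 96 strain means, on which recombinant inbred strains of a panel share haplotypes and are not fully independent. Of the 32 other members, 28 rose with Ppara and 1 fell (slopes by limma, adjusted p under 0.05), where 25.3% of all genes rose and 25.3% fell. Among genes at or above the median signal 66.0% were called in either direction. The slope was above 0 for 31 of the 32 members and for 55.2% of all genes, and the median r was 0.55 for the members and 0.042 for all genes. The closest were Acaa2 and Acadvl, the very long chain acyl-CoA dehydrogenase, both with r of 0.75, and Acads, the short chain acyl-CoA dehydrogenase (0.74), followed by Eci2 and Cpt2 (both 0.69) and Slc25a20 (0.68). For Acaa2, Spearman's rho was 0.77, the permutation p of both was 1e-05, the smallest that 100000 permutations can give, and r was 0.73 without AXB5/PgnJ and BXD75/RwwJ, the 2 strains farthest from the median Ppara level. A rise of 1 in Ppara went with a rise of 0.27 in Acaa2 (SE 0.025), 0.24 in Acadvl (SE 0.022) and 0.32 in Acads (SE 0.029).

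The lowest r after that of Pdk4 were those of Crot (r = 0.15), Etfa (0.17) and Hadhb (0.19), which were not called, and Acadm (0.25) and Etfdh (0.29), which were (adjusted p = 0.032 and 0.012). Pdk4 was the one member that fell as Ppara rose, with r of -0.23, rho of -0.20 and adjusted p = 0.045 by limma (permutation p = 0.022 and 0.052). Without the 2 farthest strains its r was -0.14, and it was then no longer called. Its call thus rests on those strains. With the cell type markers described below as covariates its slope was -0.40 (adjusted p = 0.29). Within panels its r was -0.41 in BXD, -0.46 in AXB/BXA, -0.77 in CXB and -0.17 in the classical inbred strains.

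**Figure D4:**
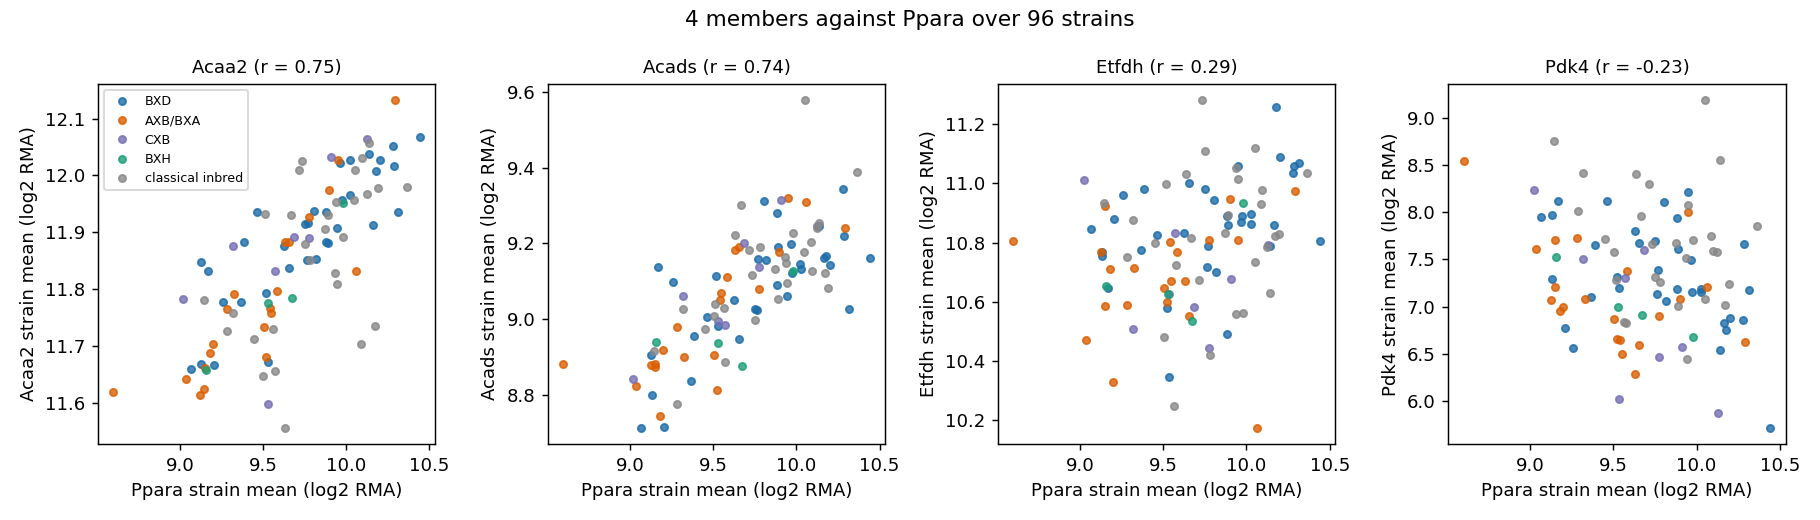
Strain means of Acaa2, Acads, Etfdh and Pdk4 against the strain mean of Ppara (log2 RMA signal), 1 point per strain, 96 strains, coloured by panel. Acaa2 and Acads rise with Ppara (r = 0.75 and 0.74), Etfdh does so weakly (0.29), and Pdk4 has an r of -0.23.

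Values within panels were as follows. The median r of the 32 members was 0.63 over the 34 BXD strains (31 positive), 0.47 over the 21 AXB/BXA strains (29 positive), 0.10 over the 8 CXB strains (19 positive) and 0.35 over the 29 classical inbred strains (29 positive), and BXH has too few strains for an r. The medians of all genes lay between -0.016 and 0.050 in these panels. Acads (0.71, 0.82, 0.87 and 0.67) and Acadvl (0.81, 0.75, 0.64 and 0.65) had an r above 0.6 in all 4. Cpt1a had r of 0.50, 0.33, -0.27 and 0.0017, in the same order. No slope was called as different among BXD, AXB/BXA and the classical inbred strains (interaction by limma, adjusted p = 1.0 for each of the 32), and CXB was not in that test. With the panel as a factor, 25 members rose and 1 fell.

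Mice of the same strain showed the relation too. In the 87 strains that have at least 2 mice, with strain as a factor, 22 of the 32 members rose with Ppara and 0 fell, where 12.0% of all genes rose and 15.1% fell. Among genes at or above the median signal 40.0% were called. The slope was above 0 for 30 of the 32 members and for 50.0% of all genes. Without mouse 1 of every strain 1 member was called, and without mouse 2 it was 2. Only strains that had 3 or 4 mice enter these 2 fits. The median r was 0.30 and that of all genes -2.1e-04. Slc27a2 (0.54), Eci2 (0.53), Acaa2 (0.50) and Cpt1a (0.48) were the closest. Cpt1a, with the smallest share of strain variance after Crot, had a slope of 0.41 within strains (SE 0.066) and an r of 0.34 over strains. Acadvl, among the closest over strains, had r of 0.24 here. The difference between the relations over strains and within strains was not tested.

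Ppara also moved with much else in the liver. Over the strain means it had r of -0.73 with the summed cholangiocyte markers, -0.73 with stellate cell markers, -0.50 with macrophage and Kupffer cell markers, 0.53 with hepatocyte markers, 0.60 with adipocyte markers and 0.74 with the genes of the circadian clock (permutation p = 1e-05 for each). It was 0.26 with endothelial cell markers (permutation p = 0.0099), 0.25 with muscle markers (permutation p = 0.0096) and 0.085 with T and B cell markers (permutation p = 0.41). The muscle markers all lay under the median signal, the brightest being Mylpf with a mean of 3.38, and 0 of the 6 differed among strains. A summed level follows the brightest genes of its list. Among the adipocyte markers this was Car3 (mean 12.4, r = 0.63), while Fabp4 (mean 8.38) had r of -0.50. Adipoq, Lep and Retn lay under the median signal, so the adipocyte value is that of Car3 and not of the list. The markers of a list did not all move alike. Of the 9 hepatocyte markers measured, 6 rose with Ppara and 0 fell, with a median r of 0.25, and Alb (-0.088) was among those not called. Of the 12 macrophage and Kupffer cell markers, 6 fell with Ppara and 1, Clec4f (r = 0.36), rose. Of the 10 stellate cell markers, 6 fell and 0 rose, and Lrat (0.14), Reln (0.074) and Des (-0.0036) were among those not called. Of all genes 25.3% fell and 25.3% rose. The clock list includes genes that rise and fall with the hour. Of its 13 genes measured, 7 rose and 3 fell with Ppara, with a median r of 0.33. The methods describe a fast of some hours from the early morning before the blood was taken at euthanasia, when the liver was also frozen, and an hour for each mouse was not used here. The first principal component of all probe sets, which held 19.95% of the variance, had r of 0.81 with Ppara over strain means. With the summed levels of the cholangiocyte, stellate cell and macrophage markers as covariates, a fit added after the data were seen, 12 of the 32 members were called, 9 higher and 3 lower, where 25.2% of all genes were called and 13% were called higher, and 11 of the 12 were called without the covariates too. The 9 were Creb3l3, Cpt2, Slc25a20, Crat, Acadvl, Acads, Acaa2, Eci2 and Pex11a. The 3 lower were Etfa (-0.22, adjusted p = 1.8e-04), Etfdh (-0.30, adjusted p = 1.3e-04) and Hacl1 (-0.41, adjusted p = 0.0078), although Etfdh and Hacl1 had risen with Ppara without the markers. What part the other cells or the hour had in the relation was not tested.

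The members also moved with each other. Of their 528 pairs, 515 had an r above 0 over strain means, with a median of 0.55, and 498 did within strains, with a median of 0.36. Pairs of other genes were not counted, so these values have no background beside them. The closest pairs over strains were Etfdh with Eci1, with Hsd17b4 and with Acadl (each 0.86), Eci1 with Hsd17b4 (0.85) and Cpt2 with Crat (0.84) and with Acadvl (0.82). Etfdh, which followed Ppara weakly, was thus the closest partner of several members. Ppara had a median r of 0.55 with the others. Eci1 (0.68), Hsd17b4 (0.68), Ech1 (0.66) and Slc25a20 (0.66) had the highest medians. Crot (0.087) and Pdk4 (0.14) had the lowest.

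Pdk4 was not apart from every member. Within strains its r was 0.61 with Crat, 0.56 with Ehhadh, the bifunctional enzyme of peroxisomes, and 0.44 with Vnn1, against -0.19 with Ppara and -0.17 with Acaa2. Over strains its highest r was 0.42, with Hadhb, and it was 0.36 with Ehhadh and 0.30 with Crat. These are descriptions over points that share their arrays, and no test was made of them.

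**Figure D5:**
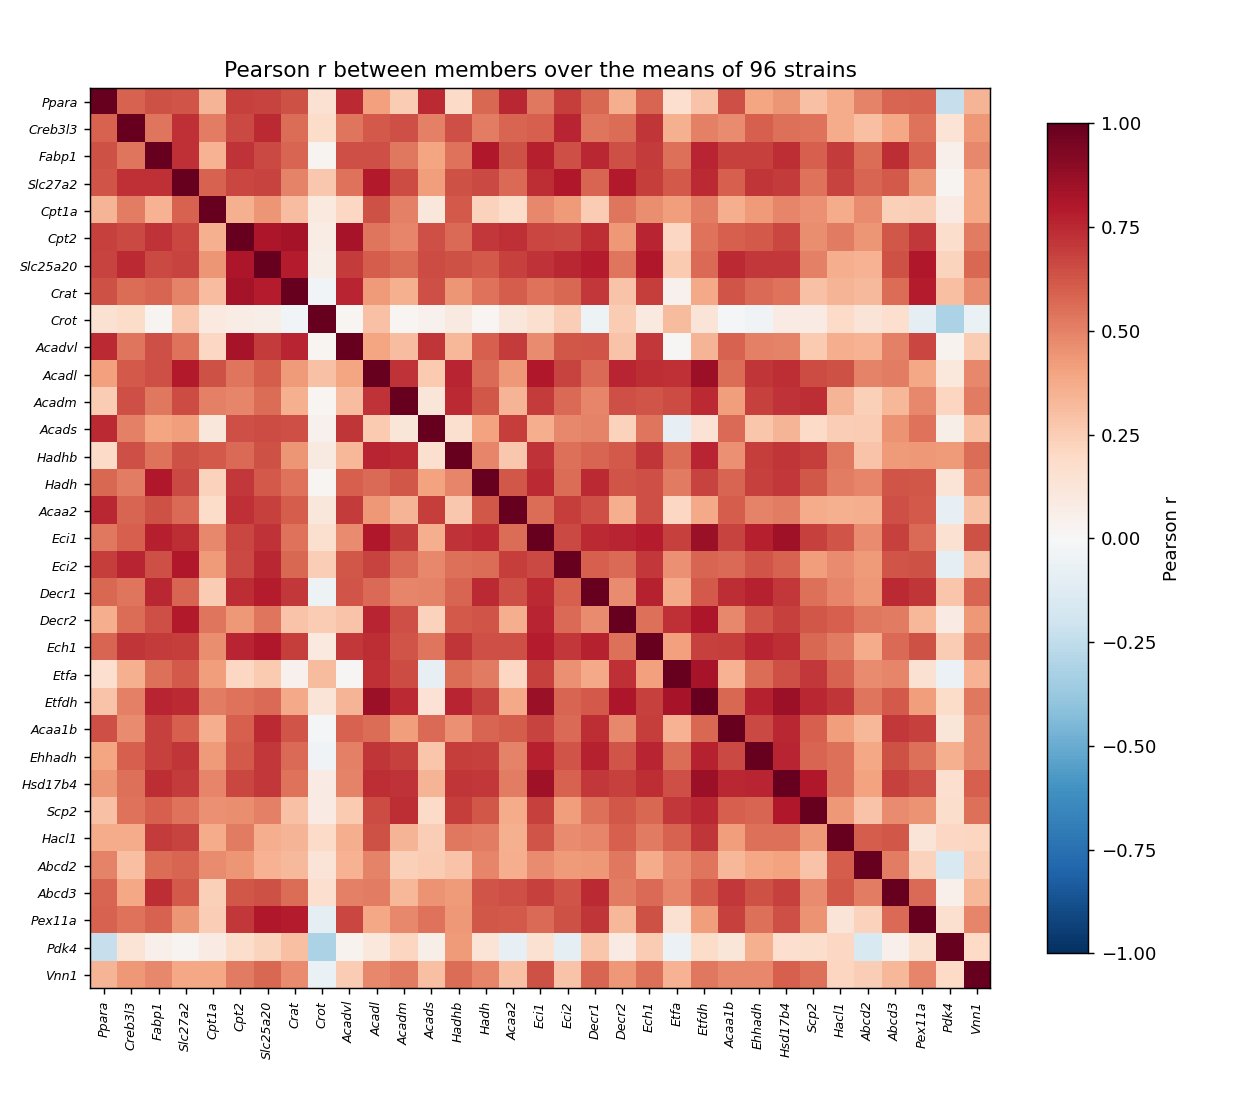
Pearson r between the strain means of each pair of the 33 members over 96 strains, ordered by role. Red is positive and blue negative. Nearly all pairs are red (515 of 528 above 0), and the rows of Crot and Pdk4 are pale, with median r of 0.087 and 0.14. Pairs of other genes were not counted.

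Other genes of the pathway were counted in the same fits, beside the 25.3% of all genes that rose and the 25.3% that fell with Ppara. Their lists were chosen by function, with earlier results of these data known. Of 19 further PPARα targets measured, 12 rose and 2 fell with Ppara over strains, with a median r of 0.35. Among them Cyp4a10 (r = 0.60), a fatty acid ω-hydroxylase, and Acot3 (0.69), an acyl-CoA thioesterase, rose, and Fgf21 (-0.48), the fasting hormone of the liver, fell. Of 19 further peroxisome genes, 15 rose and 1 fell (median r 0.53), with Pex16 at 0.79. Of 13 other mitochondrial acyl-CoA enzymes, 7 rose and 1 fell (median r 0.58). Of 11 partners and related receptors, 7 rose and 1 fell, led by the coactivator Ppargc1b (0.80) and by Rxra (0.75), the retinoid X receptor. Pparg, the receptor of fat storage, fell (-0.33). Of 12 genes of fatty acid synthesis, 11 rose as well (median r 0.48). Of 5 ketogenesis genes 2 were measured, of which Acat1, the acetoacetyl-CoA thiolase, rose (0.52) and Slc16a6, a transporter of ketone bodies, fell (-0.43). In BXD against AXB/BXA, 5 of the 19 targets, 5 of the 19 peroxisome genes and 1 of the 12 synthesis genes were called higher and 0 lower, beside 4.33% of all genes called higher. The 10 genes most like Ppara by absolute r over 96 strains held no member. They were led by Cebpa (0.87), a transcription factor of differentiated hepatocytes, and Pdp2 (0.86), the phosphatase that reverses the action of Pdk4.

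The 11 members with more than 1 probe set had 15 further ones, of which 11 had an r of 0.5 or more with the one used over strains. The other 4 were single probe sets of Acadl (r = -0.053), Hadhb (-0.069), Acaa2 (0.31) and Abcd2 (0.33). With Ppara, the r of the further Acaa2 probe set was 0.25, at a mean of 10.63, against 0.75 for the one used, and that of the further Hadhb probe set was 0.54, at a mean of 4.95, against 0.19. The probe set chosen thus moves the values of these 2 genes. Those of Acadl and Abcd2 lay under the median signal, with means of 2.83 and 2.76. A maternal sequence variant under a probe can change the signal of a strain, which was not tested.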

How the data were processed

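Liver RNA of 220 mice, 1 Affymetrix HT MG-430 PM array per mouse, was analysed. The deposited table holds log2 signals by probe set, which the authors made by robust multi-array averaging (RMA: background correction, quantile normalization and summary of probes). GCOS and RMA are named in the submitters' processing notes, with versions and any batch correction not given in the sources used here. Quantile normalization holds the array medians together (3.43 to 3.56). The r of an array with the median of all arrays, over probe sets, was 0.986 to 0.997. Arrays have no read depth, and their number limits the precision. Of 45141 probe sets, 104 controls were left out, and 28898 carried 1 symbol, for 17097 genes. The table held 0 columns of other samples. Groups were the maternal strains in the labels, and panels were read from strain names.

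Tests were two-sided limma 3.58.1 fits in R 4.3.3, adjusted by Benjamini-Hochberg over all probe sets and called at an adjusted p under 0.05. Strains with 2 or more mice entered the F-test across strains, a fit of 1 mean per strain gave the progenitor contrasts (124 residual degrees of freedom), and strain means gave panel contrasts and slopes on Ppara. The share of variance between strains came from a random-effects analysis of variance. A summed marker level is the log2 of the summed linear signals of a list. The fits were tested on simulated data. Members and lists were chosen with earlier results of these data known. All members were accounted for, and values were given in full for the 8 with the largest share of variance, the 8 widest ranges, those called in a contrast (up to 8), the 6 highest and 6 lowest r with Ppara, and Ppara and Creb3l3. Of genes outside the members, up to 4 a list and the 10 most like Ppara could be named. Alternatives were a filter on dim probe sets, the mean of all probe sets, an intensity trend, other weights, covariates or strains, and leaving out mice.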

Additional observations from a re-analysis of the deposited data

Results flagged for a closer look

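In 5 of 99 groups of 4 to 10 values tested for an outlying sample, 1 value lay farther from the others than the limit of Dixon's test allows, and chance alone gives about 1 in 20. The strain mean of Crot in CXB11/HiAJ was 3.80, above the next CXB strain at 3.49, at a signal near background. The strain mean of Decr1 in CXB11/HiAJ was 10.44, below the next CXB strain at 10.84. CXB11/HiAJ has 1 mouse. In BXD20/TyJ, mouse 1 was the lowest of the 4 mice for Hadh (12.5 against 12.7 in the nearest) and for Eci2 (10.004 against 10.2). Among the 4 BXH strains, Decr1 was highest in BXH6/TyJ, at 11.2 against 10.98 in the next.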

How the results depend on the processing

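Counts of members called are given here under other settings. With the summed markers of 3 other cell types as covariates, the count for BXD against AXB/BXA went from 13 to 2 and that for the relation to Ppara over strain means from 29 to 12. In that fit the slopes of 9 of the 28 members that had risen turned negative: Acadl (-0.059), Acadm (-0.067), Eci1 (-0.039), Decr2 (-0.23), Etfdh (-0.30), Ehhadh (-0.052), Hsd17b4 (-0.060), Scp2 (-0.053) and Hacl1 (-0.41). So did those of Hadhb (-0.087), Etfa (-0.22) and Crot (-0.025), which had not been called. With strain means weighted by mice, BXD against AXB/BXA gave 22. Without dim probe sets, BALB/cJ gave 8 instead of 4 and the strains of BXH 5 instead of 3. The mean of all probe sets gave 1 instead of 0 for DBA/2J. A fit of the 5 progenitor strains alone gave 3 for A/J, 1 for DBA/2J and 4 for C3H/HeJ. With strains of 3 or more mice alone, 8 members instead of 22 rose with Ppara within strains. Leaving out mouse 1, 2 or 3 of every strain, or 1 progenitor mouse, gave 3 to 16 for the 5 panels, 8 to 12 for BXD against AXB/BXA, 0 to 4 for A/J, 0 to 1 for DBA/2J, 0 to 5 for BALB/cJ, 0 to 7 for C3H/HeJ, 27 to 31 for strain differences, 28 to 29 for the relation to Ppara over strains and 1 to 20 within strains. It gave 18 to 28 among the strains of BXD, 14 to 26 of AXB/BXA, 2 to 15 of CXB and 0 to 2 of BXH. Leaving out mouse 1 or 2 of every strain leaves 2 mice or more only in the strains that had 3 or 4. Of 738 values of single genes under an alternative, 571 kept their direction and were called, 158 kept their direction and were no longer called, and 9 changed direction. The causes were not tested. No paired analysis was possible because the replicate numbers were given in accession order and pair no mice. Arrays near background, as for Crot, limit what can be seen.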

Other observations

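Genes of fatty acid synthesis, the pathway opposite to oxidation, also differed between the progenitor strains. In A/J, 10 of 12 measured were called lower than in C57BL/6J (limma, adjusted p under 0.05), with a median difference of -1.48, and in BALB/cJ 11 of 12 were, with a median of -1.49. In C3H/HeJ 3 were called lower, and in DBA/2J 0 were, with medians of -0.86 and -0.47. Of all genes, 4.61%, 4.20%, 3.15% and 0.983% were called lower in A/J, BALB/cJ, C3H/HeJ and DBA/2J. These contrasts share the 2 C57BL/6J mice, and the counts of synthesis genes were not repeated with a mouse left out.

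Genes of the circadian clock moved with Ppara in both directions. Of 13 measured, 7 rose and 3 fell over the 96 strain means, where 25.3% of all genes rose and 25.3% fell. Tef (r = 0.79), Per3 (0.78) and Dbp (0.69) rose, and Arntl (-0.64), an activator of the clock, fell with Npas2 and Clock. Within strains Dbp had r of 0.53 and Arntl -0.45. Of the 5 cholangiocyte markers measured, 5 fell with Ppara over strains and 5 within strains.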
